A study of Mus musculus with 5 samples.

Results

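The genes described here encode the machinery with which cells, and above all phagocytes, digest what they take up: lysozyme, the cathepsins and legumain, lysosomal glycosidases and lipid-handling proteins, and proteins of the lysosomal membrane. The list holds 32 genes chosen for this role, and all 32 had at least 1 probe set of the array that the platform annotation assigns to that gene alone. Of the 18193 genes on the array with such a probe set, these 32 held 73 probe sets, and each gene was read at its brightest probe set, by mean level in the 5 arrays. For 31 of the 32 the higher group mean lay at or above 6.41 on the log2 scale, the median of all probe sets, and Ctsk was the exception. The list was divided into 8 genes typical of macrophages (Lyz2, Cd68, Laptm5, Ctss, Ctsc, Ctsh, Ctsz and Lgmn), 23 genes that most cells use, and Ctsk, the cathepsin of osteoclasts.

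RNA came from the dLGN (dorsal lateral geniculate nucleus), which relays vision through the thalamus, cut from brain slices of newborn mice at P0 on a C57BL/6 background. The knockout group (Sema6A-/-, 2 arrays) lacked Sema6a, a transmembrane semaphorin of axon guidance. The control group (heterozygous for the mutant allele, 3 arrays) kept 1 intact copy, so controls carried the mutation too. Each array was made from a pool of nuclei of several pups of 1 genotype and more than 1 litter. The sources used here do not give how the allele was made or how many pups entered a pool.

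Lysosomes are acidic compartments filled with hydrolases that break down proteins, glycans and lipids delivered by endocytosis, phagocytosis or autophagy. Every cell has them, and neurons depend on them, as the neurodegeneration of inherited lysosomal storage diseases shows. Microglia, the macrophages of the brain, add to this common set genes such as Lyz2, Cd68 and Ctss, and in the developing brain they clear dying cells and synaptic material. In bulk tissue, more cells of a type and more RNA per cell cannot be told apart.

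Promoters of 5 members are shown because they carry letters of the kind bound by factors known for macrophage or lysosomal genes. RefSeq (GRCm38.p6) windows of 250 bases before the transcription start were found for 29 of the 32 genes. In Lyz2, Cd68 and Ctss, capitals mark GAGGAA, the PU box bound by the myeloid factor PU.1, and AGGAAG, an Ets-type site that shares the letters AGGAA with it. In Lamp1 and Ctsd, capitals mark CACGTG, the core of the site through which TFEB and its relatives act on lysosomal genes. All are written 5′ to 3′ on the strand of the gene, and a match on the other strand is capitalised as its complement reads here.
Lyz2, chr10:117282273-117282522, minus strand: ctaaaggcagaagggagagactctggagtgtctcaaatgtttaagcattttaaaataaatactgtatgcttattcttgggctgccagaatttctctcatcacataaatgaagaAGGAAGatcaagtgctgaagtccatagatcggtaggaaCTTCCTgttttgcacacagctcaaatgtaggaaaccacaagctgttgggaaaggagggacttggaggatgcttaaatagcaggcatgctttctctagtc
Cd68, chr11:69666171-69666420, minus strand: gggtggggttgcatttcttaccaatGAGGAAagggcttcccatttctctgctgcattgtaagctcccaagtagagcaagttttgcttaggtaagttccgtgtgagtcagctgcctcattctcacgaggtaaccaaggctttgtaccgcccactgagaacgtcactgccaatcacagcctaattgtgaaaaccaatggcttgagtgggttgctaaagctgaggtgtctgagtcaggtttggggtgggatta
Ctss, chr3:95526536-95526785, plus strand: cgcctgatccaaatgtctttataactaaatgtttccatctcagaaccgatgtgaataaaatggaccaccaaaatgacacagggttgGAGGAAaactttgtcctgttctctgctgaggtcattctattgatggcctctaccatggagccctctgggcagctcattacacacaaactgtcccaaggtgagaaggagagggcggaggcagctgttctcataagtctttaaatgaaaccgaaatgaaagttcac
Lamp1, chr8:13158911-13159160, plus strand: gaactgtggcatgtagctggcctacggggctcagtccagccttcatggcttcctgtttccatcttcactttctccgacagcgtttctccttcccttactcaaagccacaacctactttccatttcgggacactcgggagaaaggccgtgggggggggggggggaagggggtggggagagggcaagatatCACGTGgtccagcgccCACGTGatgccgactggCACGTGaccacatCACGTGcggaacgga
Ctsd, chr7:142387828-142388077, minus strand: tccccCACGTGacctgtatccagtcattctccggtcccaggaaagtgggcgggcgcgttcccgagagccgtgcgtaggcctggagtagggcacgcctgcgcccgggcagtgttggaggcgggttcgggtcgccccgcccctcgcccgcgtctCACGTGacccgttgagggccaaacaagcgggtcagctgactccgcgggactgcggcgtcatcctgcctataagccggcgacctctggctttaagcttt

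Lamp1 held 4 copies of CACGTG, the farthest 61 and the nearest 15 bases before the start, and Ctsd held 2, at 245 and 98 bases. Searched on both strands, CACGTG occurred in 8 of 21 ubiquitous genes with a window (38.1%), 1 of 7 macrophage-typical genes (14.3%) and 6.02% of all 32851 windows. A 10-base palindrome with CACGTG at its centre, a fuller form of the TFEB site, was searched as well. It occurred in 0 of 7 macrophage-typical genes, 0 of 21 ubiquitous genes and 0.24% of all windows. No match in these genes thus covered the full palindrome. Partial matches beyond the core were not counted. GAGGAA was found in 4 of 7 macrophage-typical genes (57.1%), 7 of 21 ubiquitous genes (33.3%) and 23.3% of all windows. AGGAAG was found in 3 of 7 (42.9%), 7 of 21 (33.3%) and 29.5%. A member with more than 1 window counted once, with a match in any of them, as for CACGTG in Lgmn. The share of all windows counts single windows and is thus not the same measure. Lyz2 held AGGAAG at 137 and 99 bases before the start and Cd68 and Ctss held GAGGAA at 225 and 164 bases. Lamp1 also held AGGAAG, 202 bases before the start, which is left in lower case above. These matches describe letters in short windows and not binding.

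Before the members, the arrays themselves were compared. Probe sets of Sema6a other than the brightest gave log2 fold changes of -2.27 and -2.52, each with a limma adjusted p of 0.0546. The brightest read 7.81 and 7.85 in the knockout arrays, still above the median level, against 10.39 to 10.65 in the controls. It fell, at a log2 fold change of -2.68 with a limma adjusted p of 0.0236. With any 1 array left out, 0 probe sets passed, so that call and every other adjusted call named here rests on all 5 arrays. All 8 markers of thalamic relay neurons and all 6 general neuronal markers reached the median level. Knockout replicate 1 stood apart from the other 4 arrays in the markers of prethalamic and GABAergic neurons, whose median over 9 genes lay 2.77 above the control mean in that array and 0.31 above it in knockout replicate 2. The control probe sets at the 3′ and 5′ ends of the Gapdh transcript lay 2.34 apart in that array and 0.96 apart in knockout replicate 2, while those of controls lay 0.77 to 1.32 apart. Xist read 11.50 and 4.10 in knockout replicates 1 and 2, against 10.79 to 11.54 in controls. The labels give no sex for the pools. In control replicate 3 the median of 8 meningeal and fibroblast markers lay 1.02 above the control mean, against -0.39 and -0.67 in control replicates 1 and 2. Values are therefore given for each array. The limma p-values measure the spread between pools. No exact permutation test of 2 arrays against 3 can give a p below 0.1.

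Of the 32 genes, 1 passed the test. Lyz2 was higher in the knockout at an adjusted p of 0.05 in limma over all 45037 probe sets, where 0.104% of all genes passed in either direction and 0.0733% of all probe sets. No member passed as lower. Unadjusted, 13 members had p under 0.05 with a higher knockout mean and 1 with a lower, against 6.90% of all genes higher and 4.90% lower. In 16 of 32 members both knockout arrays lay above all 3 controls, and in 2 both lay below, against 15.8% and 13.9% of all genes. Among genes at or above the median level those shares were 17.6% and 16.1%. A log2 fold change above 1 was found for 5 members, against 1.90% of all genes. The members were chosen with earlier results of these arrays known, so these counts are descriptions.

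**Figure D1:**
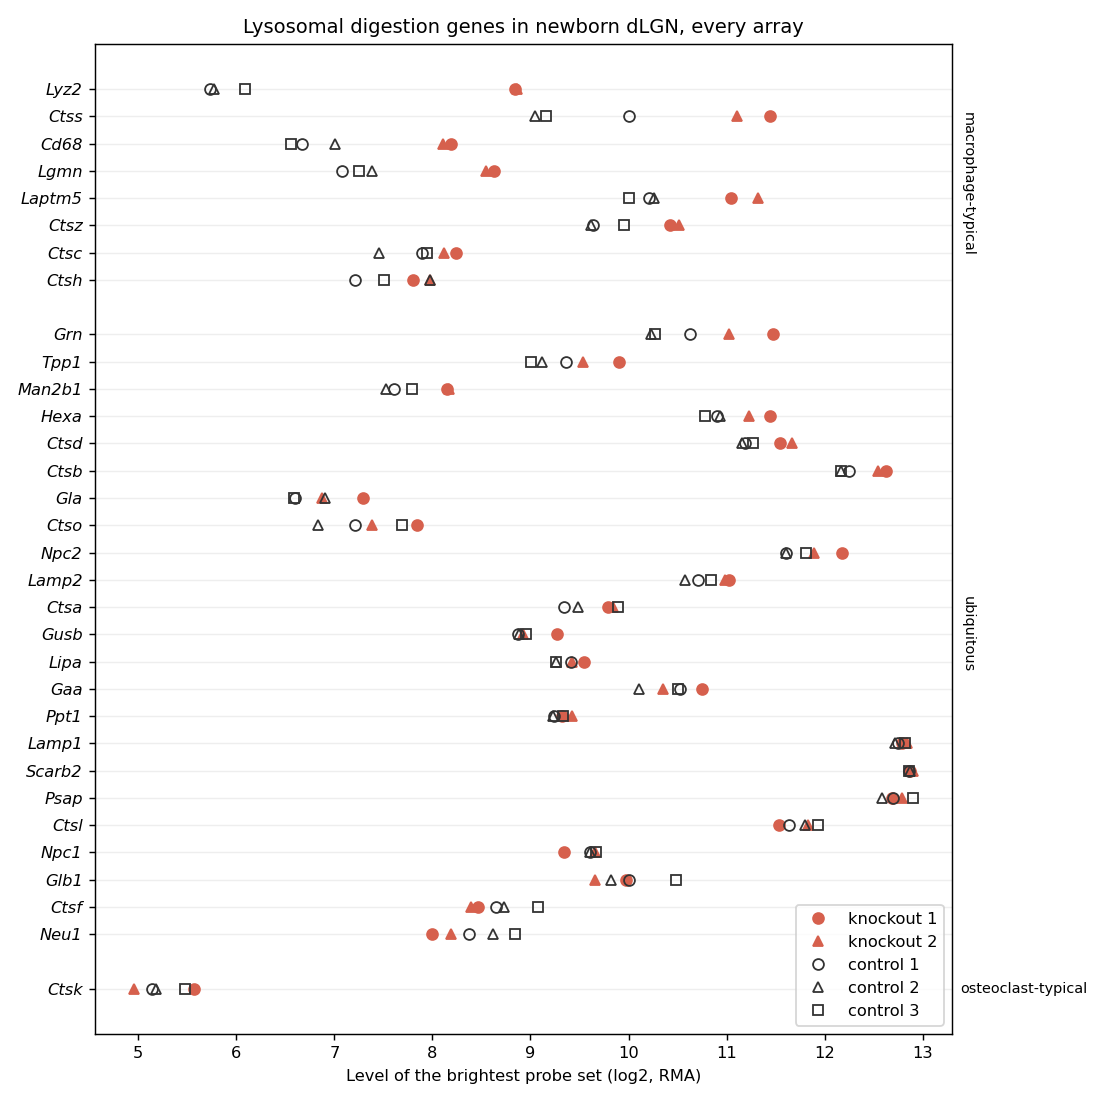
Level of every member at its brightest probe set (log2 scale, RMA) in each of the 5 arrays, with filled red symbols for knockout and open symbols for control. The knockout symbols of Lyz2, at 8.84 and 8.86, stand clear of the controls at 5.73 to 6.09, whereas those of Scarb2 and Lamp1 fall on the control symbols.

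The classes are set side by side without a test. Over the 8 macrophage-typical genes the median log2 fold change, knockout minus control, was 1.19, and single genes lay between 0.32 and 2.98. Over the 23 ubiquitous genes the median was 0.19, with a range of -0.51 to 0.87, and over all 18193 genes it was 0.01. All 8 macrophage-typical genes had a higher mean in the knockout, and in 7 of them both knockout arrays lay above every control. Among ubiquitous genes 18 had a higher and 5 a lower mean. In 9 of these 23 both knockout arrays lay above every control and in 2 below. Over all genes those shares were 15.8% and 13.9%. At an unadjusted p under 0.05 in limma there were 6 higher of 8, and 7 higher and 1 lower of 23. Of all genes, 6.90% were higher and 4.90% lower at that p. The macrophage-typical median lay 1.14 and 1.24 above the control mean in knockout replicates 1 and 2. The ubiquitous median lay 0.31 and 0.13 above it. Without knockout replicate 1 the medians were 1.24 and 0.13, and without knockout replicate 2 they were 1.14 and 0.31. These repeat the values of the knockout array that remained and are no separate check.

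**Figure D2:**
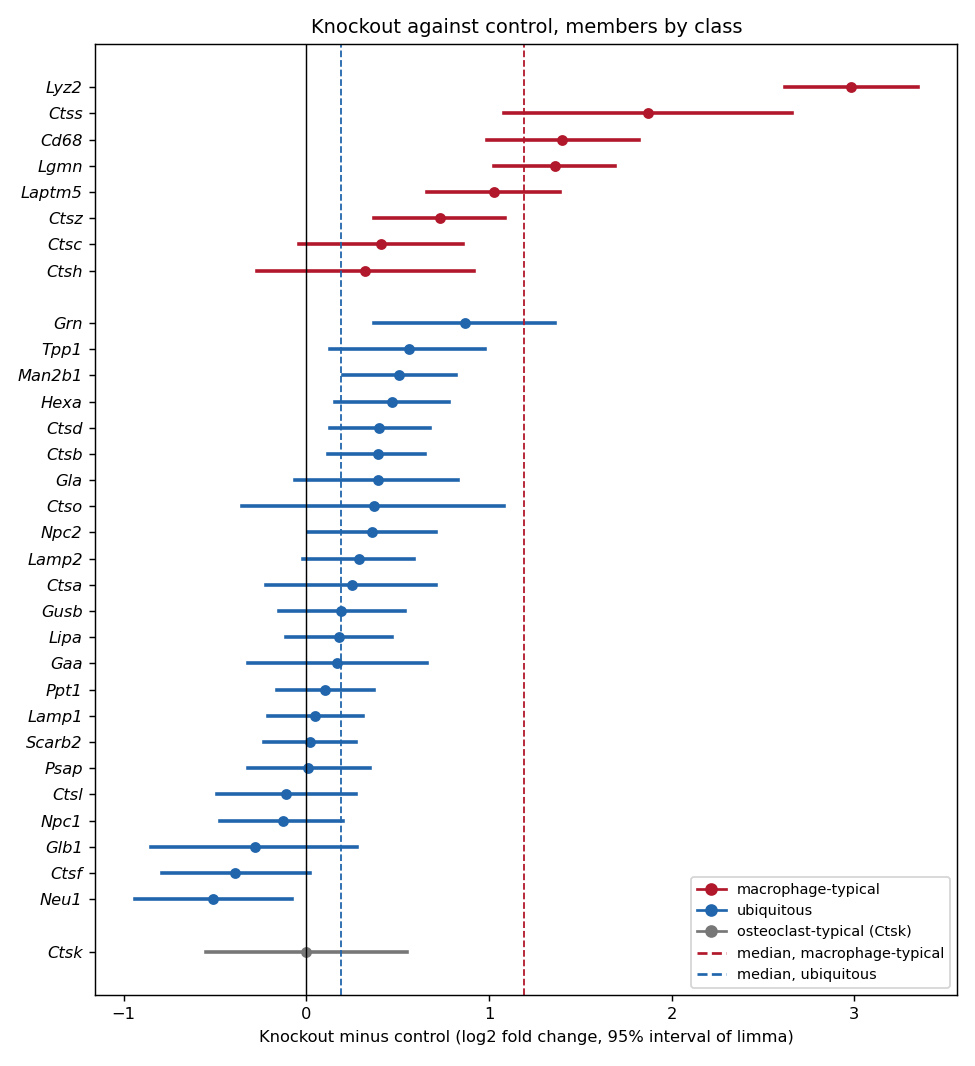
Log2 fold change of each member, knockout minus control, with the 95% interval of the limma fit, by class, and dashed lines at the class medians of 1.19 and 0.19. The intervals of 6 of the 8 macrophage-typical genes lie above 0, and that of Lyz2 runs from 2.62 to 3.35.

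Lyz2 encodes the lysozyme of macrophages, which cleaves the glycan of bacterial cell walls. Its only probe set read 8.84 and 8.86 in the knockout arrays, against 5.73, 5.77 and 6.09 in the controls. The knockout arrays were nearly equal, and the lowest of them exceeded the highest control by 2.75. Lyz2 rose by 2.98 on the log2 scale (standard error 0.15), a 7.91-fold difference, with a limma adjusted p of 0.0236. Its near copy Lyz1 (3.63, described below), Cst7 (3.09) and the prethalamic marker Isl1 (3.36) had log2 fold changes as high. Isl1 was named after its values were seen. Cst7 and Isl1 read 9.74 and 9.12 in knockout replicate 1, but 4.38 and 4.59 in replicate 2. Only 5 of 18193 genes, Lyz2 included, had a log2 fold change as high as that of Lyz2. Leaving out any 1 of the 5 arrays kept the log2 fold change between 2.92 and 3.10 but ended the call, with limma adjusted p-values from 0.071 (without knockout replicate 2) to 0.234.

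Lyz1 is a near-identical neighbouring lysozyme gene, and the platform annotation assigns 3 probe sets to it alone. Lyz1 is no member and was named after its values were seen. Its brightest probe set read 10.10 and 9.49 in the knockout and 5.96, 5.82 and 6.71 in the control, a log2 fold change of 3.63 (limma adjusted p = 0.0574). A further one gave 3.29, and the dimmest 0.34 at levels of at most 3.52. Whether the Lyz1 and Lyz2 probe sets read separate transcripts was not tested, so the values of these genes may not be independent. Lyz2 is also abundant in neutrophils and monocytes. Over 8 markers of those cells the mean level was 3.94 and 3.97 in the knockout, against 4.46 to 4.77 in the control, and the median log2 fold change was -0.16. That gap in mean level lay mostly in S100a8 (-2.46) and S100a9 (-2.32), both named after their values were seen, and the other 6 markers, all below the median level, gave -0.41 to 0.17. S100a8 read 4.38 and 4.48 in the knockout, against 6.48 to 7.32 in the control (limma adjusted p = 0.0720).

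Among the cysteine proteases, Ctss and Lgmn showed the widest separation. Ctss encodes cathepsin S, which macrophages and other antigen-presenting cells use to trim the invariant chain of MHC class II. It read 11.44 and 11.11 in the knockout, against 10.00, 9.05 and 9.16 in the control. The knockout mean was 3.65-fold the control mean, at a log2 fold change of 1.87 (interval 1.08 to 2.66, limma adjusted p = 0.153). The groups did not overlap, although control replicate 1 stood well above the other controls. Lgmn, the asparaginyl endopeptidase legumain that also matures several cathepsins, read 8.63 and 8.55 in the knockout, against 7.08, 7.38 and 7.25 in the control. No control came near the knockout values. The knockout mean was 2.56-fold the control mean, at a log2 fold change of 1.36 (interval 1.03 to 1.69, limma adjusted p = 0.0649).

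The other macrophage-typical cathepsins had smaller log2 fold changes, and none passed the threshold. Ctsz, a carboxypeptidase, read 10.42 and 10.52 in the knockout, against 9.64, 9.62 and 9.95 in the control, a log2 fold change of 0.73 (limma adjusted p = 0.199). Its other probe sets gave 0.64 and 0.68. Ctsc, the dipeptidyl peptidase that activates granule serine proteases, read 8.24 and 8.12 in the knockout, against 7.89, 7.46 and 7.94 in the control. Both knockout values were above every control, by 0.17 at the closest, and the 95% interval of its log2 fold change of 0.41 ran from -0.04 to 0.86, so it included 0. Ctsh, an aminopeptidase, read 7.80 and 7.98 in the knockout, against 7.21, 7.98 and 7.51 in the control, and the groups overlapped. Its log2 fold change was 0.32 at that probe set (interval -0.27 to 0.92, and 0.15 without control replicate 1 to 0.53 without control replicate 2) and 0.91 at the other one, where the knockout read 7.79 and 7.51 and the control 6.39, 7.13 and 6.69.

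Of the 4 ubiquitous cysteine cathepsins, Ctsb had both knockout arrays above every control and Ctsf both below, and none passed the adjusted threshold. Ctsb, the most widely used of them, read 12.63 and 12.54 in the knockout, against 12.25, 12.17 and 12.17 in the control, a log2 fold change of 0.39 (interval 0.12 to 0.65, limma adjusted p = 0.305). Other Ctsb probe sets above the median level gave 0.06 to 0.51. Ctsl, a broad endopeptidase, gave -0.11 (interval -0.49 to 0.27) and Ctso 0.37 (-0.35 to 1.08), both with overlapping groups. For Ctso the other probe set, below the median level, gave -0.74, the mean of both gave -0.19, and leaving out 1 array gave 0.13 (without knockout replicate 1) to 0.60 (without knockout replicate 2). Ctsf read 8.47 and 8.39 in the knockout, against 8.65, 8.73 and 9.08 in the control. Both knockout arrays were below every control for Ctsf, at a log2 fold change of -0.39 that missed the threshold (limma adjusted p = 0.467). The osteoclast gene Ctsk was dim, at 5.57 and 4.96 in the knockout and 5.14, 5.18 and 5.48 in the control, with an interval of -0.55 to 0.55.

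Of the proteases of other classes, Ctsd is the main aspartic protease of lysosomes. It read 11.55 and 11.67 in the knockout, against 11.19, 11.16 and 11.27 in the control. The groups did not overlap, and the log2 fold change was 0.40 (interval 0.13 to 0.68, limma adjusted p = 0.303). Tpp1, a serine protease that removes tripeptides, read 9.90 and 9.54 in the knockout, against 9.36, 9.12 and 9.01 in the control, a log2 fold change of 0.56 (limma adjusted p = 0.347). Its other probe set gave 0.25. Ctsa, a carboxypeptidase that also protects neuraminidase and beta-galactosidase, gave 0.25 (interval -0.22 to 0.71, and 0.13 without control replicate 1 to 0.41 without control replicate 3) with overlapping groups.

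The 7 glycosidases had a median log2 fold change of 0.19, with 5 means above and 2 below the control. Man2b1, the acid alpha-mannosidase, read 8.15 and 8.17 in the knockout, against 7.61, 7.53 and 7.79 in the control (log2 fold change 0.51, limma adjusted p = 0.259). Hexa, the alpha subunit of beta-hexosaminidase, read 11.44 and 11.23 in the knockout, against 10.90, 10.93 and 10.78 in the control (0.47, limma adjusted p = 0.291). In both genes the groups stood apart at these probe sets. The other probe set of Man2b1, below the median level, gave -0.03, and the mean of both gave 0.24. Neu1, the lysosomal sialidase, had the lowest value of the 32. Its knockout mean was 8.10, with differences of -0.60 and -0.42 from the control mean in the 2 arrays, and its controls read 8.37, 8.62 and 8.84. Both knockout arrays were below every control, at a log2 fold change of -0.51 that missed the threshold (limma adjusted p = 0.378). Its other probe sets gave -0.19 and, at a dimmer one, 0.37. Glb1, the beta-galactosidase that forms a complex with Neu1 and Ctsa, gave -0.28 (interval -0.85 to 0.28), and between -0.44 without knockout replicate 1 and -0.10 without control replicate 3.

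Gusb gave 0.19, Gaa, which degrades glycogen, 0.17, and Gla, the alpha-galactosidase, 0.39, each with overlapping groups. With 1 array left out, Gusb ranged from 0.02 to 0.36, Gaa from -0.03 to 0.37 and Gla from 0.18 to 0.59, each lowest without knockout replicate 1 and highest without replicate 2. A further bright probe set gave -0.02 for Gusb and -0.14 for Gaa. Gla and the membrane gene Lamp2 lie on the X chromosome, and knockout replicate 2, the array with low Xist, read 6.87 for Gla against 7.29 in replicate 1. For Lamp2 the knockout arrays read 11.02 and 10.98. The part of the Xist difference in these values was not tested.

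Among 6 genes for lipids and progranulin, the median log2 fold change was 0.14, and Grn had the highest value. Grn encodes progranulin, a secreted and lysosomal protein made by microglia and neurons, and was placed with the ubiquitous genes. It read 11.47 and 11.02 in the knockout, against 10.63, 10.23 and 10.27 in the control, the largest log2 fold change of its class at 0.87 (standard error 0.20, limma adjusted p = 0.248). The groups did not overlap, and the other probe sets of Grn gave 0.51 and 0.81. Npc2, which passes cholesterol to Npc1, gave 0.36 (interval 0.01 to 0.71, and 0.21 without knockout replicate 1), while Npc1, the membrane exporter of cholesterol, gave -0.13 (-0.47 to 0.20). Lipa, the acid lipase, gave 0.18, the thioesterase Ppt1 0.10, and Psap, the precursor of the saposins, 0.01.

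The 5 membrane proteins had a median log2 fold change of 0.29, with the macrophage-typical ones highest. Cd68, the sialomucin of macrophage lysosomes, read 8.19 and 8.11 in the knockout, against 6.67, 7.01 and 6.56 in the control. The knockout mean was 2.65-fold the control mean, at a log2 fold change of 1.40 (interval 0.99 to 1.82, limma adjusted p = 0.0859). Laptm5, a lysosomal protein of blood-derived and myeloid cells, read 11.05 and 11.32 in the knockout, against 10.21, 10.26 and 10.00 in the control (2.04-fold, log2 fold change 1.03, limma adjusted p = 0.120). The lowest knockout array lay above the highest control by 1.10 for Cd68 and by 0.78 for Laptm5. Of the other Laptm5 probe sets, those above the median level gave 0.90 and 0.96.

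The general membrane proteins differed less. Lamp1, the most abundant glycoprotein of lysosomal membranes, read 12.79 and 12.84 in the knockout, against 12.75, 12.72 and 12.82 in the control, and the interval of its log2 fold change ran from -0.21 to 0.31. Scarb2, the receptor that carries glucocerebrosidase to lysosomes, read 12.87 and 12.90 in the knockout and 12.86, 12.87 and 12.86 in the control (interval -0.23 to 0.27). Differences as large as that of Cd68 or Laptm5 lie outside both intervals. Lamp2, needed for fusion of lysosomes with phagosomes, gave 0.29 (interval -0.02 to 0.59), and its other probe sets gave 0.04 to 0.51.

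**Figure D3:**
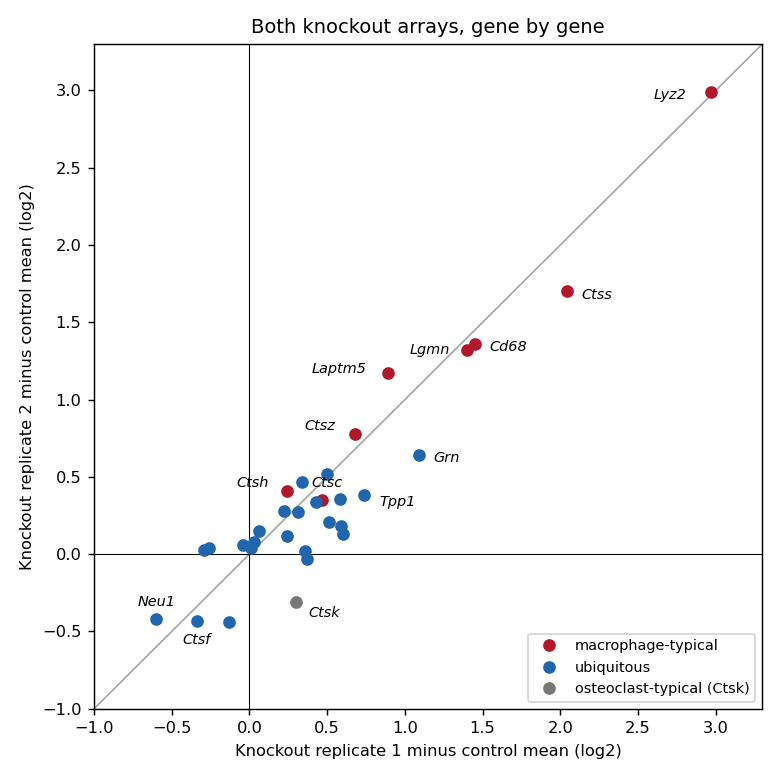
Each member's difference from the control mean in knockout replicate 1 (x axis) and knockout replicate 2 (y axis), both on the log2 scale, with a line at equality. Lyz2 lies on the line at 2.97 and 2.99, Ctss at 2.04 and 1.70, and Grn, the highest ubiquitous gene, at 1.09 and 0.64.

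The spread between the knockout arrays varied from gene to gene in both classes. Against the control mean, Lyz2 gave 2.97 and 2.99 in knockout replicates 1 and 2, Cd68 1.45 and 1.36, Lgmn 1.40 and 1.32, Laptm5 0.89 and 1.17, and Ctss 2.04 and 1.70. Grn gave 1.09 and 0.64, Ctso 0.60 and 0.13, and Gla 0.59 and 0.18, each higher in replicate 1. Npc1 (-0.29 and 0.03) and Ctsl (-0.26 and 0.04) differed in sign between the arrays. With only 2 knockout pools, it was not tested whether these gaps exceed those between controls.

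**Figure D4:**
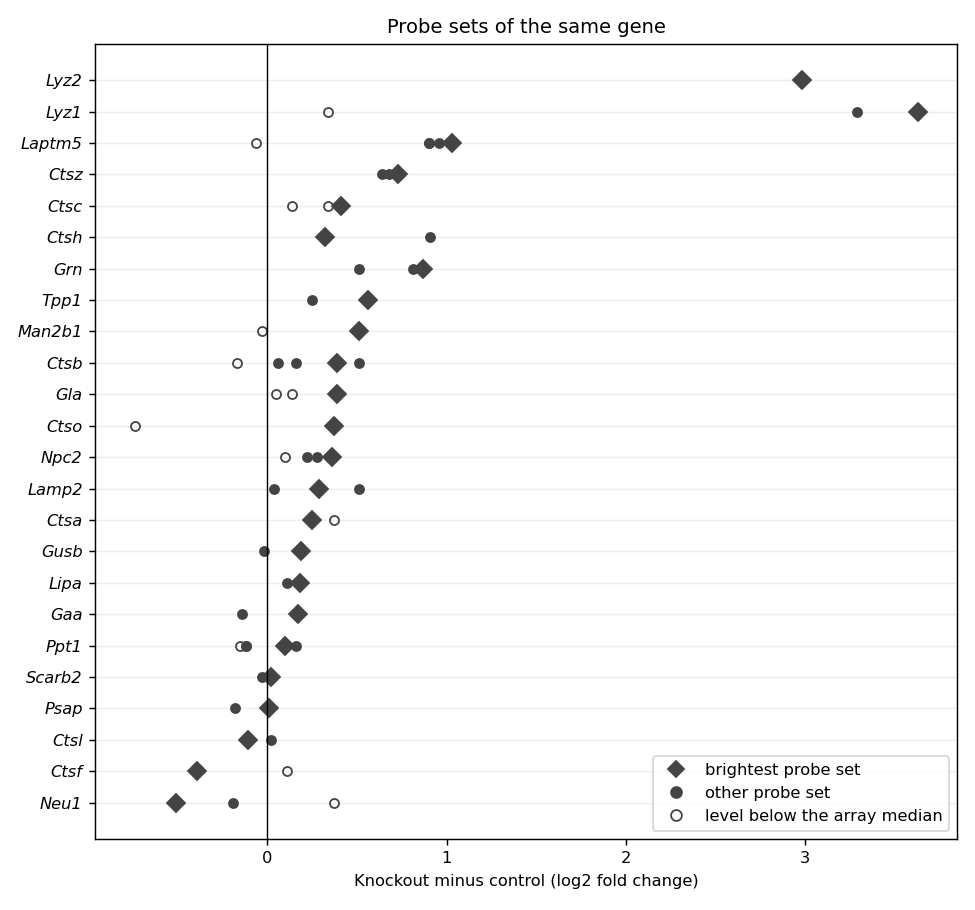
Log2 fold change, knockout minus control, at every probe set of members with more than 1, and of Lyz2 and its near copy Lyz1, with diamonds for the brightest probe set and open symbols below the median level. The probe sets of Ctsz and Grn cluster, from 0.64 to 0.73 and from 0.51 to 0.87.

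For 22 members other probe sets could be set beside the brightest one. Of 41 such probe sets, 27 had the direction of the brightest, and of the 27 at or above the median level, 20 did. For the 4 macrophage-typical genes concerned it was 8 of 9, and 5 of 5 above the median level. For the 18 ubiquitous genes it was 19 of 32 and 15 of 22. Cd68, Ctss, Lgmn and Lyz2 have a single probe set each and so lack this check.

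The wider pathway was read from 7 further lists, which together had 106 of 118 genes with a probe set of their own. In limma, 0 of the 106 passed the adjusted threshold. Unadjusted, 19 had p under 0.05 with a higher knockout mean and 1 with a lower, beside 6.90% and 4.90% of all genes. Their median log2 fold change was 0.08. The phagocyte oxidase, which makes superoxide in phagosomes, had the highest list median, 1.04 over 5 genes, of which 3 reached the median level. In all 5 both knockout arrays lay above every control, beside 15.8% of all genes. Rac2, the GTPase of the oxidase, read 7.16 and 7.05 in the knockout, against 5.95 to 6.20 in the control (log2 fold change 1.04, limma adjusted p = 0.0865). Ncf1, a cytosolic subunit, gave 1.15 (limma adjusted p = 0.112) and Cyba, a membrane subunit, 1.11 (limma adjusted p = 0.130).

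Engulfment genes had a median of 0.15 over 26 genes, with 8 higher and 0 lower at an unadjusted p under 0.05, beside 6.90% and 4.90% of all genes. Trem2, a lipid-sensing receptor of microglia, read 7.58 and 7.77 in the knockout, against 6.28, 6.61 and 6.21 in the control (log2 fold change 1.31, limma adjusted p = 0.0940). Abca1, a lipid exporter, gave 0.80 and the integrin subunit Itgb5 0.59, with limma adjusted p-values of 0.288 and 0.298.

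The lists of other hydrolases, membrane and sorting genes, the proton pump and regulators had medians near 0. Over 23 other hydrolases the median was 0.06, with Manba at 0.79, Idua at 0.49 and Fuca1 at 0.40. Over 20 genes of the lysosomal membrane and of sorting it was 0.05. There the phagosomal metal transporter Slc11a1 gave 1.06, at 6.97 and 6.11 in the knockout and 5.24, 5.26 and 5.95 in the control, and Laptm4b gave 0.31 and Cln3 0.21. Over 18 genes of the proton pump it was 0.03, with Tcirg1 at 0.33, Atp6v1g2 at 0.29 and Atp6v0e at 0.26. Over 8 regulators, among them the TFEB family, it was 0.05, with Mitf at 0.29, Mtor at -0.16 and Rragc at 0.14. Adjusted p-values in limma of these 12 named genes lay between 0.342 and 0.727.

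Cystatins and stefins inhibit cathepsins, and their 6 measured genes had a median of -0.07. Cst7, which encodes cystatin F, an inhibitor of cysteine cathepsins in immune cells, read 9.74 and 4.38 in the knockout arrays, against 3.79, 3.97 and 4.14 in the control. Its log2 fold change of 3.09 thus rests on knockout replicate 1, and the interval ran from -0.61 to 6.78. Cstb gave 0.14 and Cst6 -0.11. Stfa3, named after its values were seen, read 3.24 and 3.81 in the knockout, against 5.37, 5.22 and 5.09 in the control, all below the median level (log2 fold change -1.70, limma adjusted p = 0.0859).

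**Figure D5:**
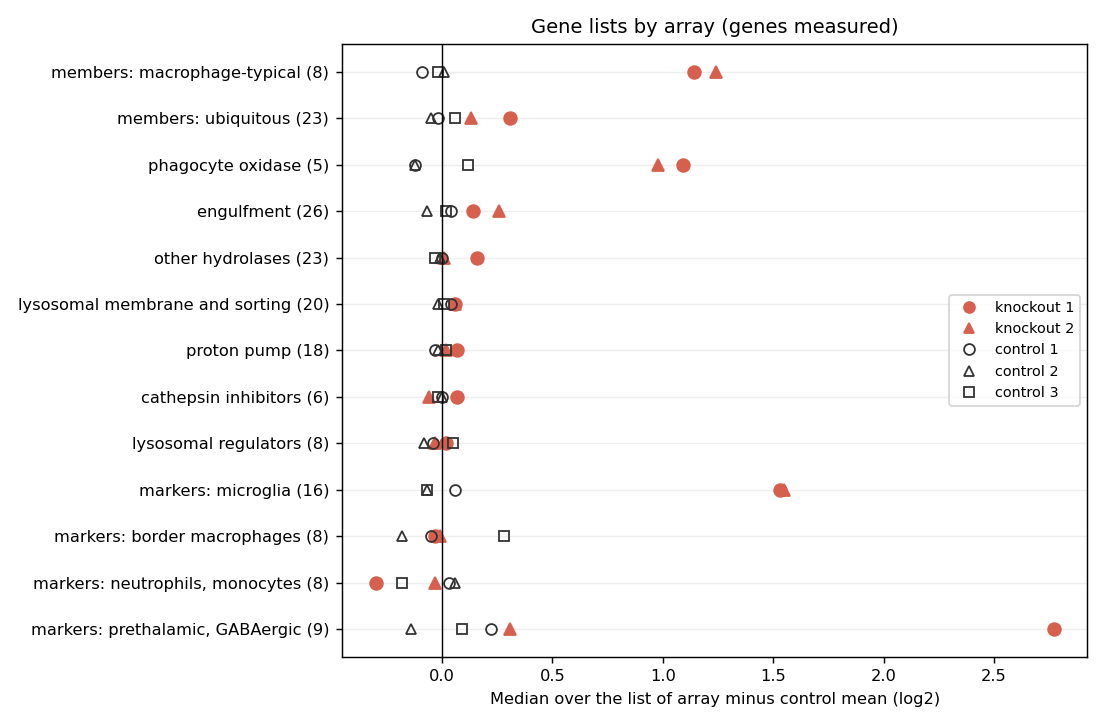
Median over each list of the difference from the control mean (log2 scale) in each array, with filled red symbols for knockout and open symbols for control, and the number of genes measured in brackets. The macrophage-typical members (1.14 and 1.24), phagocyte oxidase (1.09 and 0.98) and microglia markers (1.53 and 1.55) lie apart from the controls in both knockout arrays, and prethalamic markers mainly in replicate 1 (2.77 and 0.31).

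Markers of the cell types that could carry these genes were set beside them. All 16 microglia markers had a higher mean in the knockout, and 12 of them reached the median level. In 15 both knockout arrays lay above every control, beside 15.8% of all genes. Tyrobp, named after its values were seen, was the 1 that passed the adjusted threshold, beside 0.104% of all genes. The mean level of the 16 markers was 8.04 and 7.92 in the knockout, against 6.37 to 6.57 in the control. Their median log2 fold change was 1.50. The 8 markers of macrophages at the brain's borders had a mean level of 5.85 and 5.73 in the knockout, against 5.56 to 6.35 in the control. Their median log2 fold change was -0.02, but only 3 of the 8 reached the median level. Meningeal and fibroblast markers averaged 5.83 and 5.66 in the knockout, against 6.03, 5.77 and 7.47 in the control, where replicate 3 stood above the others. Of these 8 markers, 4 reached the median level. Erythroid markers averaged 6.08 and 6.44 in the knockout, against 6.53 to 6.76 in the control. Only 4 erythroid markers were measured, and 1 reached the median level. All 6 oligodendrocyte lineage markers had a higher mean in the knockout. In 5 both knockout arrays lay above every control, beside 15.8% of all genes, and 0 passed the adjusted threshold. The mean level of the 6 markers was 10.02 and 10.21 in the knockout, against 9.52 to 9.55 in the control. Their median log2 fold change was 0.38. No marker reads 0 on this scale. The part of these cell types in the values of the members was not tested.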

How the data were processed

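The authors deposited log2 values, 1 per Affymetrix probe set and array, and the submitters' processing notes name RMA. RMA corrects background, makes the distributions of the arrays equal and combines the probes of each set, which hides any change common to most genes and shrinks differences between dim probe sets. Its version is not given in the sources used here. Slices were 200 µm thick and 20 ng of RNA entered the amplification, per the labels' protocols. That the scale is log2 follows from the values' range, and no detection calls were used here.

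Of 45101 probe sets, 64 array controls were left out. Platform annotation gave 34945 of the remaining 45037 a single gene, 932 several and 9160 none. RefSeq's table for GRCm38.p6, matched by gene ID, held 34741 of them and changed 0. Array medians lay between 6.39 and 6.42 and pairwise correlations between 0.985 and 0.995, so no array repeated another. The number of arrays limits the precision.

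Knockout was compared with control with limma 3.58.1 (lmFit, then eBayes) under R 4.3.3, genotype being the only term, two-sided, and with Benjamini-Hochberg adjustment over all 45037 probe sets. Intervals are 95% intervals of that fit. The members, classes, lists and tests were chosen with earlier results of these data known. Text names all 32 members and, of each of 7 pathway lists, the 3 genes with the smallest p at or above the median level. The 12 marker lists are given by counts. Trem2 and Stab1 stand in 2 lists each. Beside those in the text, markers had median log2 fold changes of 0.21 for choroid plexus and ependyma, 0.12 for endothelium and pericytes, 0.08 for astrocytes and radial glia, 0.22 for thalamic relay neurons and -0.04 for neurons in general. The alternatives were a replicate block, a further quantile normalisation, centring, a filter on dim probe sets, a trend on intensity, array weights, a gene's mean over its probe sets, a looser threshold and each array left out in turn.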

Additional observations from a re-analysis of the deposited data

Results flagged for a closer look

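Among the array's control probe sets, which no comparison used, those at the 3′ and 5′ ends of Gapdh lay 2.34 log2 units apart in knockout replicate 1. It drew attention because the excess over the highest control, at 1.32, was wider than the whole control range. Knockout replicate 2 gave 0.96. For Actb the same difference was 1.91 and 0.97 in the knockout arrays, against 0.62 to 1.45 in the controls, and did not meet that rule.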

How the results depend on the processing

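With the replicate block, 0 probe sets and 0 members passed the adjusted threshold in limma (4950 probe sets and 17 members at an unadjusted p under 0.05), the macrophage-typical median was 1.13, and Lyz2 gave 3.10 (adjusted p = 0.298). Control replicate 3 has no same-numbered knockout array, so under the block it adds nothing to the fold changes. Same-numbered arrays had correlated deviations of 0.148 and 0.212, with only 2 pairs. The deviations of 2 knockout arrays from their mean mirror each other, so these values are not separate evidence. The numbers are therefore not taken to pair pools. With any 1 array left out, 0 probe sets and 0 members passed, against 33 and 1 with all arrays, with 3694 to 8397 probe sets and 11 to 16 members at an unadjusted p under 0.05. The macrophage-typical median then ranged from 1.13 to 1.26 and the ubiquitous one from 0.13 to 0.31, highest without knockout replicate 2. Leaving out dim probe sets gave 114 probe sets, 3 members (Lyz2, Lgmn and Cd68) and 1 pathway gene (Rac2). An intensity trend gave 100 probe sets, array weights 19, and a threshold of 0.1 gave 158, with the same 3 members and 3 pathway genes (Stfa3, Trem2 and Rac2). Averaging each gene's probe sets gave the same 3 members, 1 pathway gene (Stfa3), and medians of 1.05 and 0.09.

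Some values changed sign. Ctsk, at -0.0032, gave 0.10 with the block, 0.0031 after quantile normalisation, 0.00074 after centring, 0.03 with array weights and -0.31 to 0.30 with 1 array left out. With averaged probe sets, Ctso, at 0.37, gave -0.19, Psap -0.08, Scarb2 -0.01 and Ppt1 -0.02. With 1 array left out, Psap ranged from -0.06 to 0.10, Ctsl from -0.26 to 0.04, Gaa from -0.03 to 0.37 and Npc1 from -0.29 to 0.03. The cause was not tested. Of 415 values of members under these alternatives, 387 kept direction and side of the threshold. That count says little about stability. The intensity trend, the looser threshold and the filter on dim probe sets leave log2 fold changes as they were. Only Lyz2 had a call to lose. Members with both knockout arrays above every control numbered 16 with centring or without dim probe sets, 20 after quantile normalisation and 17 with averaged probe sets.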
